A study of Mus musculus with 20 samples.

Results

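The genes described here are 10 of the 39017 in the deposited table, chosen by symbol for their place in NOTCH signalling. They are the receptors *Notch1*, *Notch2* and *Notch3*, the nuclear partners and turnover factor *Rbpj*, *Maml1* and *Fbxw7*, and the direct targets *Hes1*, *Dtx1*, *Nrarp* and *Heyl*. Each symbol matched 1 gene of the table. The RNA came from bone marrow of mice transplanted with T lineage acute lymphoblastic leukemias (T-ALLs), which the study had induced by insertional mutagenesis with the MOL4070LTR retrovirus in C57Bl/6 x 129Sv/Jae F1 mice. The leukemias analysed are 5C, JW14, JW81, 8633, 78A, 73M, 73A, 2M and 20M, with 2 libraries each. These 9 are among the leukemias whose mutations the study charts. A further leukemia, 4638, also with 2 libraries, is not found there under that name, and its values are given without tests.

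All of these leukemias share the strain and the retrovirus. The labels give no genotype for each leukemia, and none was used to form groups. Recipients were irradiated wild-type F1 mice, so the marrow held the leukemia together with normal cells that remained or regrew. Each leukemia is 1 tumor in transplant, and its 2 libraries are not independent tumors. The column name of 1 library of each leukemia carries the letters VEH and that of the other DEX. Neither the labels nor the text of the study explain these letters, and the labels name no treatment of the recipients. VEH and DEX are therefore used only as names of columns.

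NOTCH receptors are membrane proteins that are cut when they bind a ligand on a neighbouring cell. ADAM metalloproteases and then the gamma-secretase complex release the intracellular part, which enters the nucleus, binds the DNA-binding protein RBPJ and recruits a Mastermind-like coactivator such as MAML1. FBXW7, the substrate receptor of a ubiquitin ligase, marks the intracellular part for degradation. In the thymus NOTCH1 directs early progenitors to the T lineage, and activating *NOTCH1* mutations are among the most frequent lesions of human T-ALL.

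The 18 libraries of the 9 leukemias held 8226528 to 201222288 expected counts (median 24451898), with the smallest total in the DEX library of JW14 and the largest in the VEH library of 73M. Levels are given as FPKM, that is, expected counts per kb of merged exon and per M counts of the library. All 10 genes had a mean of at least 1 FPKM over the 18 libraries and were among the 11339 genes tested. In 5 libraries (VEH of 5C and DEX of 20M, 73M, JW14 and JW81) 21.6 to 64.05 counts per M fell on nuclear ribosomal RNA genes, against no more than 0.00497 in the other 13. Of 12 T lineage genes, 10 to 12 were at 1 FPKM or more in each of the 18 libraries. Their summed level was 525 to 1315 FPKM, against 0.545 to 29.8 FPKM for 9 B lineage genes, 10.1 to 568 FPKM for 11 myeloid genes and 1.596 to 394 FPKM for 8 erythroid genes. Of 5 endothelial markers *Pecam1* alone reached 1 FPKM in these libraries, and *Cdh5* was at 0.177 FPKM or less. A list of 8 stromal and mural genes was at 4.605 to 71.5 FPKM, of which *Pdgfrb* alone had 2.48 to 70.0 FPKM. Mural cells are also known to express *Notch3*. Of the other genes of this list, *Acta2*, *Col1a1* and *Col1a2* reached 1.11, 1.75 and 3.08 FPKM. *Lepr* and *Cxcl12* were at 0.552 and 0.542 FPKM or less, and *Rgs5* and *Cspg4* at 0.123 and 0.0411 FPKM or less.

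By GRCm38 coordinates, *Notch1* (ENSMUSG00000026923) lies on the minus strand at chr2:26457903-26516663, *Notch2* (ENSMUSG00000027878) on the plus strand at chr3:98013527-98150361 and *Notch3* (ENSMUSG00000038146) on the minus strand at chr17:32120820-32166852. *Rbpj* (ENSMUSG00000039191) lies at chr5:53466152-53657362, *Maml1* (ENSMUSG00000050567) at chr11:50255634-50292311 and *Fbxw7* (ENSMUSG00000028086) at chr3:84815268-84979198. The targets are *Hes1* (ENSMUSG00000022528, chr16:30064384-30067796), *Dtx1* (ENSMUSG00000029603, chr5:120680202-120711927), *Nrarp* (ENSMUSG00000078202, chr2:25180758-25183339) and *Heyl* (ENSMUSG00000032744, chr4:123233556-123249875). The merged exons of *Rbpj* (12750 bases), *Fbxw7* (7046 bases), *Notch1* (14232 bases), *Hes1* (2037 bases), *Dtx1* (5270 bases) and *Heyl* (5113 bases) are longer than their longest transcripts (5485, 4473, 9488, 1468, 4035 and 4537 bases), so that their FPKM understate a level per transcript. For *Notch2* (10782 and 10500 bases) and *Notch3* (8089 and 8016 bases) the lengths were close, and for *Maml1* and *Nrarp* they were equal. *Notch1* shares exon bases with the opposite-strand genes *0610009E02Rik* and *Gm13568*, whose counts were at most 2.37% and 1.36% of its own in any library. *Maml1* shares bases with *Gm26542* (at most 6.11% of its counts). *Nrarp* shares 2051 of its 2582 exon bases with an opposite-strand gene and *Notch2* shares 541 bases with a gene on its own strand, both not used here, so that their part in the counts could not be checked. For *Notch3* and its neighbour *Gm17276* the share reached 17.6%, in a library with few *Notch3* counts. Whether the counting used strand is not given in the sources used here.

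The windows around the transcription start (250 bases before to 50 after it) are shown for *Notch1*, *Notch3* and *Dtx1*, whose levels ran in parallel across the leukemias, and for *Rbpj*, the member whose windows held the core letters bound by RBPJ. The sequences are from RefSeq on build GRCm38.p6, in which 8 of the 10 genes, with 11 windows, were matched. *Hes1* and *Heyl* were not matched. The letters searched were TGGGAA and, for the other strand, TTCCCA, and matches are in capitals.
*Notch1* (chr2:26503773-26504072, minus strand): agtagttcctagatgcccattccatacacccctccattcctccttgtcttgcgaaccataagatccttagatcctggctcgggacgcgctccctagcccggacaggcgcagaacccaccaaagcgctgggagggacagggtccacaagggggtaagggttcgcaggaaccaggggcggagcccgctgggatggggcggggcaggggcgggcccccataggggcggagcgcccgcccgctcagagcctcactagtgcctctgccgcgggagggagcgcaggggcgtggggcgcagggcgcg
*Notch3* (chr17:32166841-32167140, minus strand): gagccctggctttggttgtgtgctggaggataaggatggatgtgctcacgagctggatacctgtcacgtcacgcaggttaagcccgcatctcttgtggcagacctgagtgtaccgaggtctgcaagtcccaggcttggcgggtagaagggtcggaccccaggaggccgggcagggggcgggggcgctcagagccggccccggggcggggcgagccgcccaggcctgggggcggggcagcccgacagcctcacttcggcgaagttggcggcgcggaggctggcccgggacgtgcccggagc
*Dtx1* (chr5:120711620-120711919, minus strand): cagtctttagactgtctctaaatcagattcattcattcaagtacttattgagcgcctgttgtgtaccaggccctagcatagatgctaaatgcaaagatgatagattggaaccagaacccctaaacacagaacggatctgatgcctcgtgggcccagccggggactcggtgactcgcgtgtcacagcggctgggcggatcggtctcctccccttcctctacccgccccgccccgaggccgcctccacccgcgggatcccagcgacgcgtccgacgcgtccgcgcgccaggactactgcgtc
*Rbpj* (chr5:53590096-53590395, plus strand): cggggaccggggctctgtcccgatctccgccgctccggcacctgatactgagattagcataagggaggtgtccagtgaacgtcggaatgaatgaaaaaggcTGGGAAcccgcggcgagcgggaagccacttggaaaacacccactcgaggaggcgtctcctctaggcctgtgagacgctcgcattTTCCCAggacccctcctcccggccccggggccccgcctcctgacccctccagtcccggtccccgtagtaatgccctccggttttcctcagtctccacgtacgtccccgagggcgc
The letters were in 2 of the 11 windows, both of *Rbpj*, against 25.6% of the 32851 windows of the table. The 2 *Rbpj* windows overlap and share 1 of these matches. In the *Rbpj* window shown they are found on each strand. The *Notch1*, *Notch3* and *Dtx1* windows held 68.3%, 70.0% and 59.3% G and C and 23, 25 and 26 CpG pairs, against medians of 52.7% and 7 over all windows. No match says only that these letters are not in this window.

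Levels of *Notch1*, the receptor most often mutated in T-ALL, were far apart between leukemias. It was at 120.4 and 131 FPKM in the VEH and DEX libraries of 20M, at 107 and 115.9 FPKM in 73M and at 119.6 and 84.8 FPKM in 78A. In 73A it was at 94.9 and 103 FPKM, in 2M at 104 and 85.0 FPKM and in JW81 at 51.8 and 63.6 FPKM. In 8633, 5C and JW14 it was at 1.71 and 1.30, 1.21 and 1.06, and 1.11 and 1.09 FPKM. Every library of 8633, 5C and JW14 was thus below every library of the other 6 leukemias. In bulk RNA a smaller share of expressing cells and less RNA per cell cannot be told apart. Summed T lineage levels were also lowest in these leukemias, at 525 to 548 FPKM in 5C, 616 to 642 FPKM in 8633 and 598 to 671 FPKM in JW14, against 709.7 FPKM (DEX library of 73A) or more in the other 6, and their part in the difference was not tested. The mean over leukemias was 66.1 ± 51.9 FPKM (SD, n = 9). By the mean of log2(FPKM + 1) over both libraries, 20M stood above 73M, 78A, 73A and 2M, which overlapped with their neighbours, followed by JW81, by 8633 and by 5C and JW14, which overlapped.

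*Notch2*, a receptor used in many tissues outside the T lineage, had a narrower spread than *Notch1*. It was at 5.03 to 10.4 FPKM in the VEH libraries (median 8.40, n = 9) and at 4.66 to 11.7 FPKM in the DEX libraries (median 7.54, n = 9). Its highest level was in 73A (10.4 and 11.7 FPKM) and its lowest in 2M (5.03 and 4.66 FPKM). The order ran from 73A and 78A over 20M, 73M and JW81, which overlapped, to JW14 and 5C, which also overlapped, and then 8633 and 2M. The leukemia 2M, with *Notch1* at 104 and 85.0 FPKM, thus had the least *Notch2*.

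*Notch3*, a receptor that is itself a transcriptional target of NOTCH1, was spread over the leukemias much as *Notch1* was. It was at 38.4 and 55.9 FPKM in the VEH and DEX libraries of 2M, at 37.0 and 52.1 FPKM in 20M and at 33.7 and 32.8 FPKM in 73M. In 73A it was at 20.6 and 38.2 FPKM, in JW81 at 24.0 and 31.0 FPKM and in 78A at 31.0 and 23.9 FPKM. It was at 1.19 and 1.29 FPKM in 5C, while 8633 had 12 and 4 counts (0.04998 and 0.0217 FPKM) and JW14 had 9 and 0 counts. In the DEX library of JW14, 3 counts of *Notch3* would correspond to 0.0451 FPKM, and this limit covers counting error only. The leukemia 5C thus stood above 8633 and JW14 in *Notch3*, although 5C and JW14 overlapped in *Notch1*. The summed stromal and mural list split the leukemias the same way, at 4.605 to 7.88 FPKM in the libraries of 5C, 8633 and JW14 and at 10.7 to 71.5 FPKM in those of the other 6. Most of that sum was *Pdgfrb*, and the part of stromal or mural cells in the *Notch3* pattern was not tested. The summed B lineage list, low throughout, split them likewise, at 0.545 to 0.821 FPKM against 1.12 FPKM or more, and its part was not tested.

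**Figure D1:**
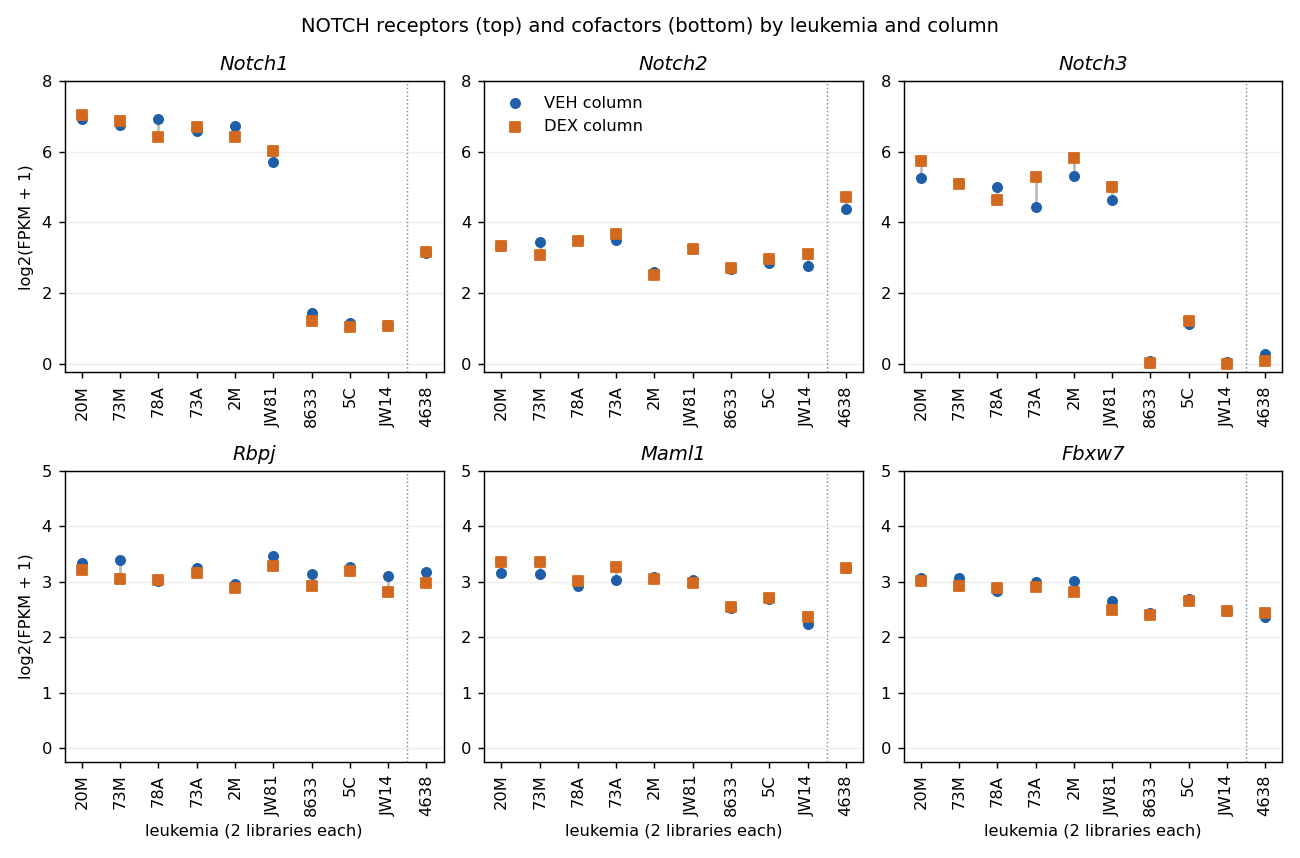
Levels as log2(FPKM + 1) of the 3 receptors (top) and of *Rbpj*, *Maml1* and *Fbxw7* (bottom) in each leukemia, with a circle for the VEH and a square for the DEX library joined by a line, and 4638 set apart by a dotted line. *Notch1* and *Notch3* drop in 8633, 5C and JW14 (1.06 to 1.71 and 0 to 1.29 FPKM), while the 3 genes below stay between 3.73 and 10.01 FPKM in the 18 libraries of the 9 leukemias.

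The makeup of the receptors differed accordingly. *Notch1* held 58.3% to 75.3% of the summed FPKM of *Notch1* to *Notch4* in the libraries of 20M, 2M, 73A, 73M, 78A and JW81, where the sum was 84.3 to 192.6 FPKM. In 5C, 8633 and JW14 the sum was 6.98 to 9.18 FPKM, and *Notch2* held 71.4% to 85.1% of it. *Notch3* held 13.8% and 14.05% of the sum in 5C and 0.689% or less in 8633 and JW14. In 4638 *Notch2* held 70.6% and 74.4% of a sum of 28.1 and 34.1 FPKM. These are shares of RNA and not of receptor protein at the cell surface.

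**Figure D2:**
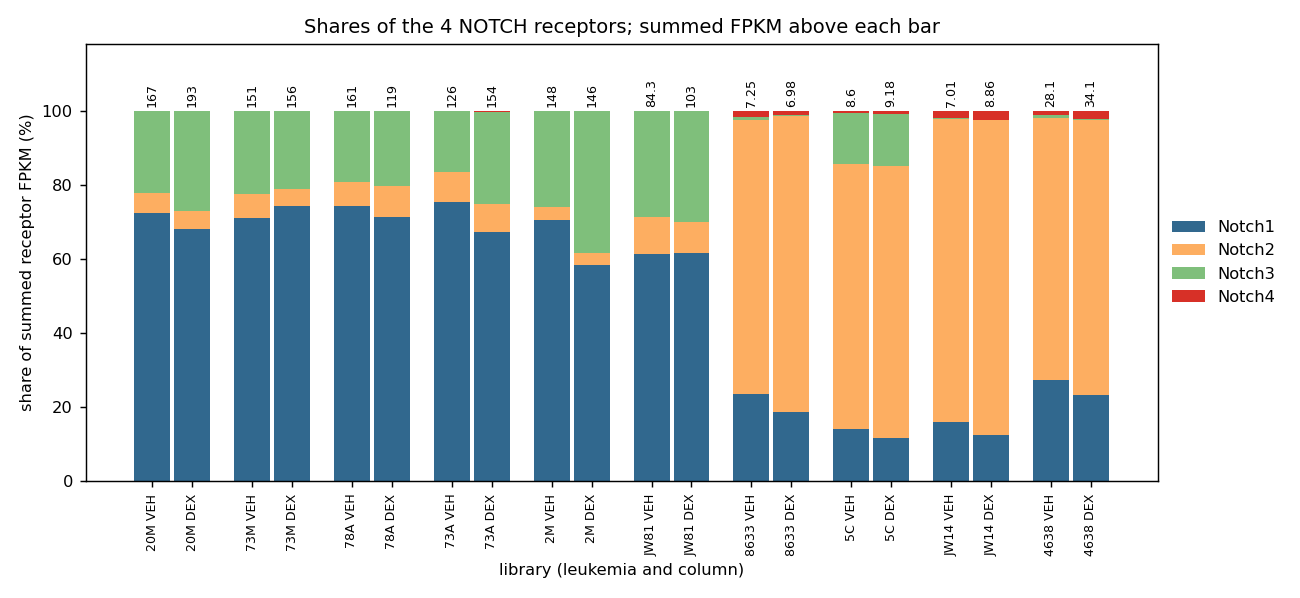
Share (%) of each of the 4 NOTCH receptors in their summed FPKM in every library, with the sum in FPKM above the bar. *Notch1* is the largest part in 20M, 73M, 78A, 73A, 2M and JW81 (58.3% to 75.3%) and *Notch2* in 8633, 5C, JW14 and 4638 (70.6% to 85.1%).

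The 3 genes that act with the receptors had narrower ranges than *Notch1* and *Notch3*. *Rbpj*, which encodes the DNA-binding partner of the NOTCH receptors, was at 6.79 to 10.01 FPKM in the VEH libraries (median 8.54, n = 9) and at 6.05 to 8.76 FPKM in the DEX libraries (median 7.28, n = 9). Its leukemia means spanned 0.45 on the log2(FPKM + 1) scale, from 2M to JW81, and 90.5% of the 11339 genes tested had a range at least as wide. In the order of leukemias 1 step, that between 73A and 8633, was without overlap. *Maml1*, which encodes the coactivator, was at 3.73 to 7.97 FPKM in the VEH libraries (median 7.15, n = 9) and at 4.18 to 9.28 FPKM in the DEX libraries (median 7.06, n = 9). It was lowest in JW14 (3.73 and 4.18 FPKM), then 8633 (4.77 and 4.81 FPKM) and 5C (5.44 and 5.52 FPKM), each apart from the next and from the other 6 leukemias. *Fbxw7* was at 4.38 to 7.35 FPKM in the VEH libraries (median 6.09, n = 9) and at 4.25 to 7.03 FPKM in the DEX libraries (median 6.06, n = 9). It was lowest in 8633 (4.38 and 4.25 FPKM), with JW14, JW81 and 5C above it in that order, each apart from the next, and the other 5 leukemias overlapped with their neighbours.

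Among the targets, *Dtx1* encodes an E3 ubiquitin ligase that binds NOTCH. It was at 155 and 82.6 FPKM in 78A, 115 and 103 FPKM in 20M, 96.2 and 123 FPKM in 73M and 98.6 and 81.5 FPKM in 2M. It was at 64.4 and 47.3 FPKM in 73A and at 44.8 and 41.0 FPKM in JW81, each apart from the leukemia above. In 5C, 8633 and JW14 it had 6 to 34 counts in a library, or 0.0399 to 0.285 FPKM. These are the leukemias in which *Notch1* was also low.

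*Hes1*, a transcriptional repressor and a classic NOTCH target, had its highest level in JW81, with 47.7 FPKM in the VEH and 124 FPKM in the DEX library. It was at 33.7 and 23.3 FPKM in 20M, 34.4 and 22.3 FPKM in 2M, 25.8 and 18.5 FPKM in 78A, 22.9 and 17.1 FPKM in 73M and 15.8 and 8.36 FPKM in 73A. In 5C, 8633 and JW14 it was represented by 1 to 8 counts in a library. The ratio of *Hes1* to *Notch1* FPKM was 0.921 and 1.95 in the libraries of JW81 and 0.0810 to 0.330 in those of 20M, 2M, 73A, 73M and 78A. JW81 was thus highest in *Hes1* while it was the lowest of these 6 in *Notch1* and *Dtx1*.

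*Nrarp* encodes a small ankyrin repeat protein that limits NOTCH signalling. It was at 9.95 and 6.41 FPKM in 78A, 5.68 and 5.10 FPKM in 20M, 4.16 and 3.54 FPKM in 2M, 2.35 and 1.42 FPKM in 73M and 2.28 and 1.02 FPKM in 73A. It was at 0.856 and 0.882 FPKM in 5C, above JW81 (0.211 and 0.280 FPKM, from 14 and 15 counts), 8633 (0.183 and 0.187 FPKM, from 14 and 11 counts) and JW14 (8 and 3 counts). JW81 thus had about as many *Nrarp* counts as 8633, with *Notch1* at 51.8 and 63.6 FPKM against 1.71 and 1.30 FPKM.

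*Heyl*, a repressor related to the HES family, was at 18.99 and 21.5 FPKM in 78A, 15.8 and 17.5 FPKM in 20M, 14.9 and 17.0 FPKM in 73A, 13.6 and 15.9 FPKM in 2M and 13.2 and 11.6 FPKM in 73M. It was at 1.13 and 1.86 FPKM in JW81, which overlapped with 5C (1.33 and 0.856 FPKM), and at 0.202 to 0.452 FPKM in JW14 and 8633. *Hes1* and *Dtx1* thus placed JW81 beside 20M, 2M, 73A, 73M and 78A, and *Nrarp* and *Heyl* placed it beside 5C or 8633. This describes 1 leukemia and was not tested.

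**Figure D3:**
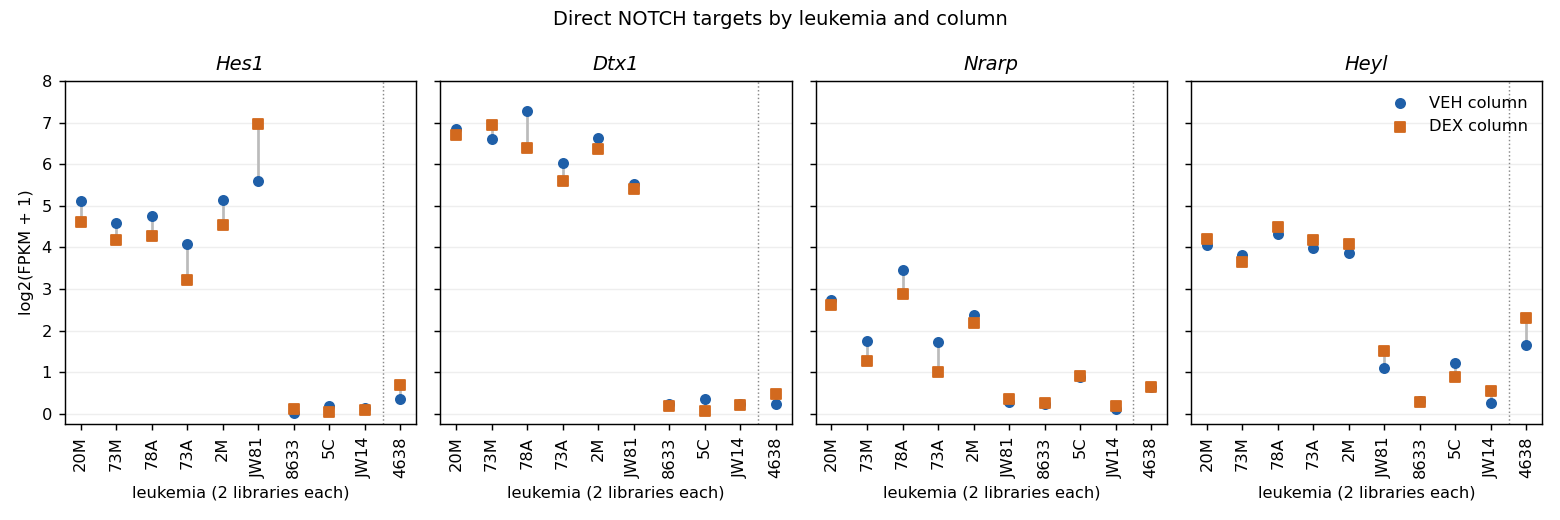
Levels as log2(FPKM + 1) of the 4 direct targets in each leukemia, with a circle for the VEH and a square for the DEX library, and 4638 set apart by a dotted line. JW81 is highest in *Hes1* (47.7 and 124 FPKM), near 8633 in *Nrarp* (0.211 and 0.280 FPKM) and near 5C in *Heyl* (1.13 and 1.86 FPKM).

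In 4638 *Notch1* was at 7.70 and 7.87 FPKM, between JW81 and 8633. *Notch2* was at 19.8 and 25.4 FPKM there, above every library of the other 9 leukemias. The targets were at 0.269 and 0.612 FPKM (*Hes1*), 0.180 and 0.386 FPKM (*Dtx1*), 0.560 and 0.559 FPKM (*Nrarp*) and 2.13 and 3.91 FPKM (*Heyl*), and *Notch3* was at 0.216 and 0.0620 FPKM. Summed T lineage levels in 4638 were 352 and 269.2 FPKM, summed myeloid levels 1383 and 952 FPKM and summed B lineage levels 31.2 and 50.1 FPKM. All were outside the ranges of the 18 libraries, and the part of other cells in the values of 4638 was not tested.

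Differences between the 9 leukemias were tested with the edgeR quasi-likelihood F test of all leukemia terms, with the VEH or DEX column as a covariate, so that the error was the spread between the 2 libraries of a leukemia. All 10 genes passed an adjusted p of 0.05. So did 82.5% of the 11339 genes tested, so the count does not set these genes apart. Adjusted p was 6.37e-10 for *Notch1*, 5.16e-09 for *Dtx1*, 5.54e-09 for *Notch3*, 6.27e-09 for *Heyl*, 8.40e-08 for *Nrarp* and 2.17e-07 for *Hes1*. It was 3.61e-05 for *Maml1*, 0.000106 for *Notch2*, 0.000169 for *Fbxw7* and 0.00967 for *Rbpj*. *Rbpj* missed the threshold without JW81 (adjusted p = 0.0712) and without a filter on low genes (adjusted p = 0.0628), and its adjusted p over 14 alternatives was 8.61e-06 to 0.0712.

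The genes differed in the width of these differences. The range of leukemia means on the log2(FPKM + 1) scale was 6.62 for *Dtx1*, 6.21 for *Hes1*, 5.91 for *Notch1*, 5.54 for *Notch3*, 4.12 for *Heyl* and 3.02 for *Nrarp*. It was 1.04 for *Notch2*, 0.95 for *Maml1*, 0.62 for *Fbxw7* and 0.45 for *Rbpj*. The median was 3.57 over the 10 genes and 0.94 over all 11339, and ranges above 2 were seen for 6 of the 10 genes and for 15.4% of all genes. Of all genes tested, 0.282% had a range as wide as that of *Dtx1*, 0.450% as that of *Hes1*, 0.556% as that of *Notch1*, 0.714% as that of *Notch3*, 2.34% as that of *Heyl* and 6.02% as that of *Nrarp*. For the other 4 genes these shares were 43.4% (*Notch2*), 49.1% (*Maml1*), 76.03% (*Fbxw7*) and 90.5% (*Rbpj*).

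Genes outside the 10 with the most similar levels were found by the root mean square difference of centered log2(FPKM + 1) over the 9 leukemias. The difference is not scaled, so genes with ranges of unlike width come out far apart even where they order the leukemias alike. From *Nrarp*, for instance, *Notch1* was at rank 11186, behind *Rbpj* with its narrow range at rank 5868. Nearest to *Notch1* were *Gfra1* (0.34), *Arsi* (0.37) and *Bst1* (0.41). *Dtx1* and *Notch3* came next, at ranks 4 and 5 of the genes tested (0.43 and 0.56), while *Hes1* was at rank 20 (0.96), *Heyl* at rank 65 (1.31) and *Nrarp* at rank 521 (1.98). *Dtx1* had the same 3 nearest genes, *Gfra1* (0.35), *Arsi* (0.44) and *Bst1* (0.73), with *Notch1* at rank 2 (0.43). *Notch3* was most like *Hdgfl3* (0.26), *Bst1* (0.40) and *H2-T3* (0.49), with *Notch1* at rank 5 (0.56) and *Dtx1* at rank 33 (0.84). For *Hes1* they were *Afdn* (0.44), *Il2ra* (0.67) and *AW011738* (0.72), and the nearest of the 10 genes was *Notch3*, at rank 6 (0.76). *Nrarp* was most like *Gng2* (0.30), *Id1* (0.35) and *Tnfaip2* (0.44), and *Heyl* most like *Pitpnm2* (0.41), *Thnsl2* (0.44) and *Stat4* (0.45). The 3 nearest genes of *Hes1*, *Nrarp* and *Heyl* were thus different from each other and from those of *Notch1*. The points share libraries and depth, and this is a description.

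DEX and VEH columns were compared within leukemias with the edgeR quasi-likelihood test, with leukemia as a block. Of the 10 genes 0 passed an adjusted p of 0.05, against 13.0% of the 11339 genes tested (6.22% higher and 6.79% lower in the DEX columns). At an unadjusted p under 0.05 there were 2 of the 10, *Maml1* and *Rbpj*, against 31.5% of all genes tested. Marker levels also differed between the libraries of a leukemia, and their part in these values was not tested. Examples, VEH and DEX, are 73M (myeloid 249.8 and 69.0 FPKM, erythroid 394 and 50.6 FPKM), 73A (myeloid 568 and 328 FPKM, erythroid 105 and 25.7 FPKM) and JW81 (myeloid 132.6 and 33.6 FPKM). DESeq2 likewise placed 0 past the adjusted threshold and 2 under the unadjusted one, against 19.1% and 32.1% of all genes tested. The median log2 fold change was -0.03 over the 10 genes and 0.00 over all genes tested. The 95% intervals given with each gene show how large a difference the 9 pairs could have missed.

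Among the receptors, *Notch1* was at 1.11 to 120.4 FPKM in the VEH columns (median 94.9, n = 9) and at 1.06 to 131 FPKM in the DEX columns (median 84.8, n = 9). Its DEX library was higher in 4 leukemias and lower in 5, and the log2 fold change, DEX over VEH, was -0.03 (SE 0.091, 95% interval -0.22 to 0.17, edgeR adjusted p = 0.865). That of *Notch2* was 0.07 (SE 0.065, interval -0.07 to 0.22, edgeR adjusted p = 0.457). *Notch3* was at 0.0295 to 38.4 FPKM in the VEH columns (median 24.0, n = 9) and at 0 to 55.9 FPKM in the DEX columns (median 31.0, n = 9). Its log2 fold change was 0.31 (SE 0.149, interval -0.01 to 0.64, edgeR adjusted p = 0.173), with the DEX library higher in 5 of 9 leukemias and the widest gap in 73A (20.6 against 38.2 FPKM).

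Standard errors were smallest for the 3 genes that act with the receptors. *Maml1* had a log2 fold change of 0.15 (SE 0.0531, interval 0.04 to 0.27, edgeR adjusted p = 0.0727), with higher values in the DEX library of 7 of 9 leukemias. *Rbpj* had a log2 fold change of -0.12 (SE 0.0518, interval -0.24 to -0.01, edgeR adjusted p = 0.128), with lower values in the DEX library of 8 of 9 leukemias, 78A being the exception. Neither passed the adjusted threshold. *Fbxw7* had a log2 fold change of -0.03 (SE 0.0441, interval -0.13 to 0.06, edgeR adjusted p = 0.615).

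Of the targets, *Hes1* was at 0.0165 to 47.7 FPKM in the VEH columns (median 22.9, n = 9) and at 0.0344 to 124 FPKM in the DEX columns (median 17.1, n = 9). The ratio of DEX to VEH was 0.529 in 73A, 0.648 in 2M, 0.693 in 20M, 0.715 in 78A and 0.747 in 73M, and 2.60 in JW81. Over the 9 leukemias the log2 fold change was -0.21 (SE 0.243, interval -0.74 to 0.32, edgeR adjusted p = 0.574). Without JW81 it was -0.53 (SE 0.117, edgeR adjusted p = 0.0233), so that 1 leukemia decided the call. Adjusted p for *Hes1* ranged from 0.0233 to 1.00 over 16 alternatives. The DEX library of JW81 is among the 5 with counts on ribosomal RNA genes (47.5 counts per M), as are the DEX libraries of 20M and 73M, in which *Hes1* was lower, and the part of this in the value was not tested. With a term for these 5 libraries the log2 fold change was -0.61 (SE 0.290, edgeR adjusted p = 0.244), and in the 4 leukemias without such a library -0.60 (SE 0.148, edgeR adjusted p = 0.0632).

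*Dtx1* was lower in the DEX library of 8 of 9 leukemias, 73M being the exception. *Dtx1* had only 6 to 34 counts in each library of 5C, 8633 and JW14, which are among these 8. Its levels were 0.171 to 155 FPKM in the VEH columns (median 64.4, n = 9) and 0.0399 to 123 FPKM in the DEX columns (median 47.3, n = 9), and the log2 fold change was -0.26 (SE 0.168, interval -0.63 to 0.10, edgeR adjusted p = 0.298). With a term for the 5 libraries with ribosomal RNA counts it was -0.61 (SE 0.142, edgeR adjusted p = 0.0388), and in the 4 leukemias without such a library -0.49 (SE 0.119, edgeR adjusted p = 0.0619). Adjusted p for *Dtx1* ranged from 0.0388 to 1.00 over 16 alternatives.

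*Nrarp* was at 0.0820 to 9.95 FPKM in the VEH columns (median 2.28, n = 9) and at 0.141 to 6.41 FPKM in the DEX columns (median 1.02, n = 9). Its DEX library was lower in 20M, 2M, 73A, 73M and 78A and higher in the other 4 leukemias, where it had 3 to 65 counts, and the log2 fold change was -0.31 (SE 0.157, interval -0.65 to 0.03, edgeR adjusted p = 0.199). *Heyl* was at 0.202 to 18.99 FPKM in the VEH columns (median 13.2, n = 9) and at 0.206 to 21.5 FPKM in the DEX columns (median 11.6, n = 9). The DEX library of *Heyl* was higher in 6 of 9 leukemias, with a log2 fold change of 0.20 (SE 0.121, interval -0.07 to 0.46, edgeR adjusted p = 0.283). The estimates for *Hes1*, *Dtx1* and *Nrarp* were thus below 0 and that for *Heyl* above it, with each interval holding 0.

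**Figure D4:**
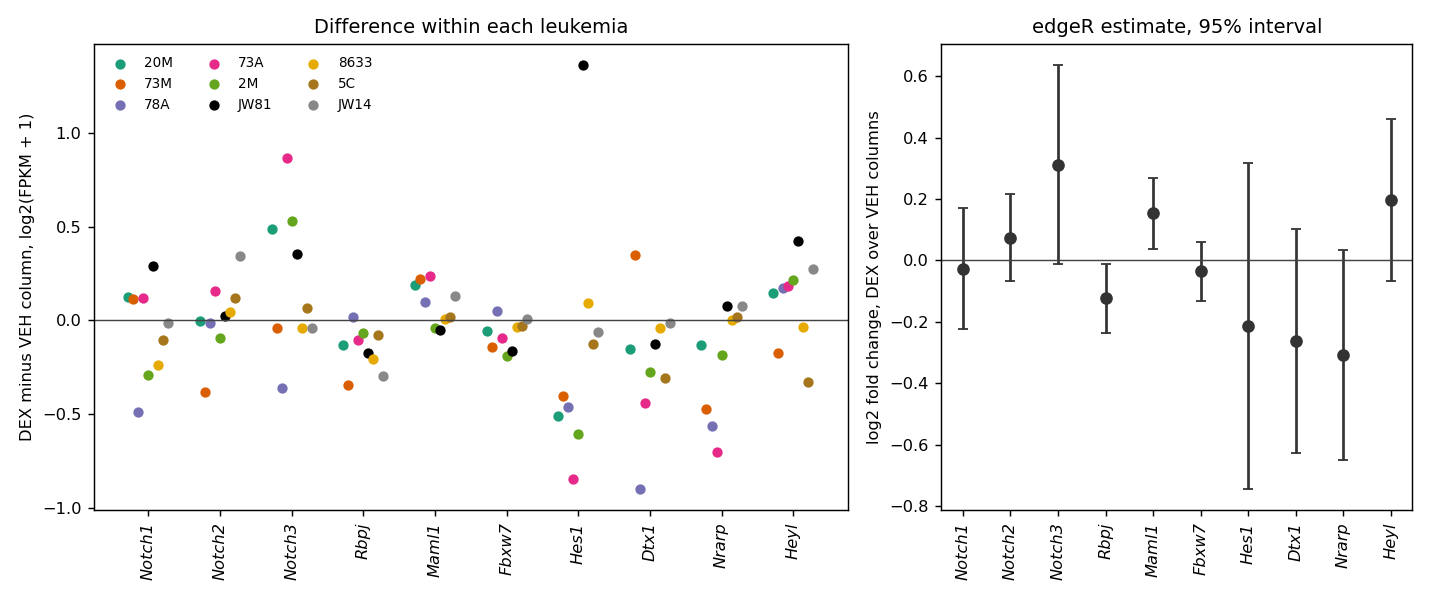
Left, DEX minus VEH library of each leukemia in log2(FPKM + 1) for the 10 genes, with 1 point for each of the 9 leukemias. Right, the edgeR log2 fold change over the 9 leukemias with its 95% interval, where *Hes1* has the widest interval (-0.74 to 0.32) and JW81 lies at 1.36 on the left, above the other 8 leukemias.

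A wider list of 50 genes of the pathway gave the setting of these 10. The ligand genes *Dll1*, *Dll3*, *Dll4*, *Jag1* and *Jag2*, and the receptor *Notch4*, were too low to be tested. The highest values among them were 2.24 FPKM for *Jag1*, in the DEX library of JW81, and 1.73 FPKM for *Jag2*. Of the 36 genes tested, 32 differed between leukemias (82.5% of all genes did). In the comparison of DEX with VEH columns 1 was higher, 4 were lower and 31 did not pass the threshold, against 6.22% higher and 6.79% lower of all genes tested, with a median log2 fold change of -0.05 against 0.00 over all genes tested.

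These 5 of 36 genes are near the 13.0% called among all genes tested, and the counts by role are of few genes and are a description. By role, 0 of 8 tested genes of receptor cleavage (furin, ADAM proteases and gamma-secretase subunits) and 0 of 7 of trafficking and ubiquitination passed the threshold of this comparison by edgeR adjusted p. At an unadjusted p under 0.05 there were 1 (*Furin*, which encodes the protease that makes the first cut of the receptor, log2 fold change 0.36, edgeR adjusted p = 0.0536) and 0, and with DESeq2 *Furin* passed the adjusted threshold and no other gene of either sublist did (31.5% of all genes tested were under the unadjusted p by edgeR and 19.1% were called by DESeq2). Of 5 genes of receptor glycosylation, 2 were lower in the DEX columns, both encoding Fringe enzymes that extend O-fucose on the receptors, while the other Fringe gene, *Rfng*, was not called (log2 fold change -0.05, edgeR adjusted p = 0.724). *Mfng* was lower in 9 of 9 leukemias (log2 fold change -0.30, SE 0.0858, edgeR adjusted p = 0.0428), and *Lfng* in 7 of 9 (-0.52, SE 0.154, edgeR adjusted p = 0.0465). Of 11 nuclear coregulators, *Maml3*, a relative of *Maml1*, was higher in the DEX columns (0.57, SE 0.144, edgeR adjusted p = 0.0260). Of 5 other HES and HEY genes only *Hes6* was high enough to be tested, and it did not pass. *Hes5* was highest in JW14 (3.33 FPKM), where *Hes1* had 8 and 1 counts.

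Other genes known as NOTCH1 targets in T cells were *Ptcra*, *Il2ra*, *Myc* and *Igf1r*. *Il2ra*, which encodes the alpha chain of the interleukin 2 receptor (CD25), was lower in the DEX columns, with a log2 fold change of -0.96 (SE 0.195, edgeR adjusted p = 0.0115). It was at 145 and 74.5 FPKM in the VEH and DEX libraries of JW81, 143.4 and 53.4 FPKM in 73M, 113 and 46.6 FPKM in 2M, 59.4 and 31.04 FPKM in 78A, 57.2 and 38.3 FPKM in 20M and 45.98 and 23.5 FPKM in 73A. In 5C, 8633 and JW14 it was at 0.0374 to 0.445 FPKM. *Il2ra* thus had the widest range of the list between leukemias (6.66 on the log2(FPKM + 1) scale), followed by *Ptcra*, the pre-T-cell receptor alpha chain (4.89). *Ptcra* was listed at 0 in both libraries of 8633 and JW14. *Igf1r* did not follow this split. It was highest in 5C, at 5.62 and 5.94 FPKM, and at 0.142 (8633) to 1.30 FPKM (73A) in the libraries of the other leukemias analysed.

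*Myc* was lower in the DEX columns over the 9 leukemias, with a log2 fold change of -0.77 (SE 0.232, edgeR adjusted p = 0.0477), but did not move the same way in each. Its VEH and DEX values were 42.5 and 17.2 FPKM in 20M, 55.0 and 19.4 FPKM in 2M, 61.5 and 19.8 FPKM in 73A, 43.1 and 25.9 FPKM in 73M, 45.8 and 16.04 FPKM in 78A and 55.5 and 21.1 FPKM in JW81. They were 40.4 and 47.0 FPKM in 5C, 110.7 and 122.6 FPKM in 8633 and 84.6 and 106 FPKM in JW14. The DEX library was thus lower in 6 leukemias and higher in 5C, 8633 and JW14, and whether these differ was not tested. Of the 5 genes called, *Il2ra* passed under 14 of 16 alternatives (adjusted p 2.10e-05 to 1.00), *Maml3* under 9 (0.00241 to 0.899), *Mfng* (0.0136 to 1.00) and *Myc* (0.00162 to 1.00) under 6 and *Lfng* under 5 (0.0162 to 1.00). *Il2ra* missed the threshold with DESeq2 (adjusted p = 0.0600) and without the block. With a term for the libraries with ribosomal RNA counts, or without 20M, 73A or 73M, it was the only gene of the list that passed. The other 4 genes also missed it in the 4 leukemias without such libraries and without the block. *Myc* further missed the threshold without 2M, 78A or JW81 and with 4638 added, *Lfng* without 2M, 78A, 8633 or JW14 and with 4638 added, *Mfng* without 2M, 78A, JW14 or JW81 and *Maml3* without JW81.

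**Figure D5:**
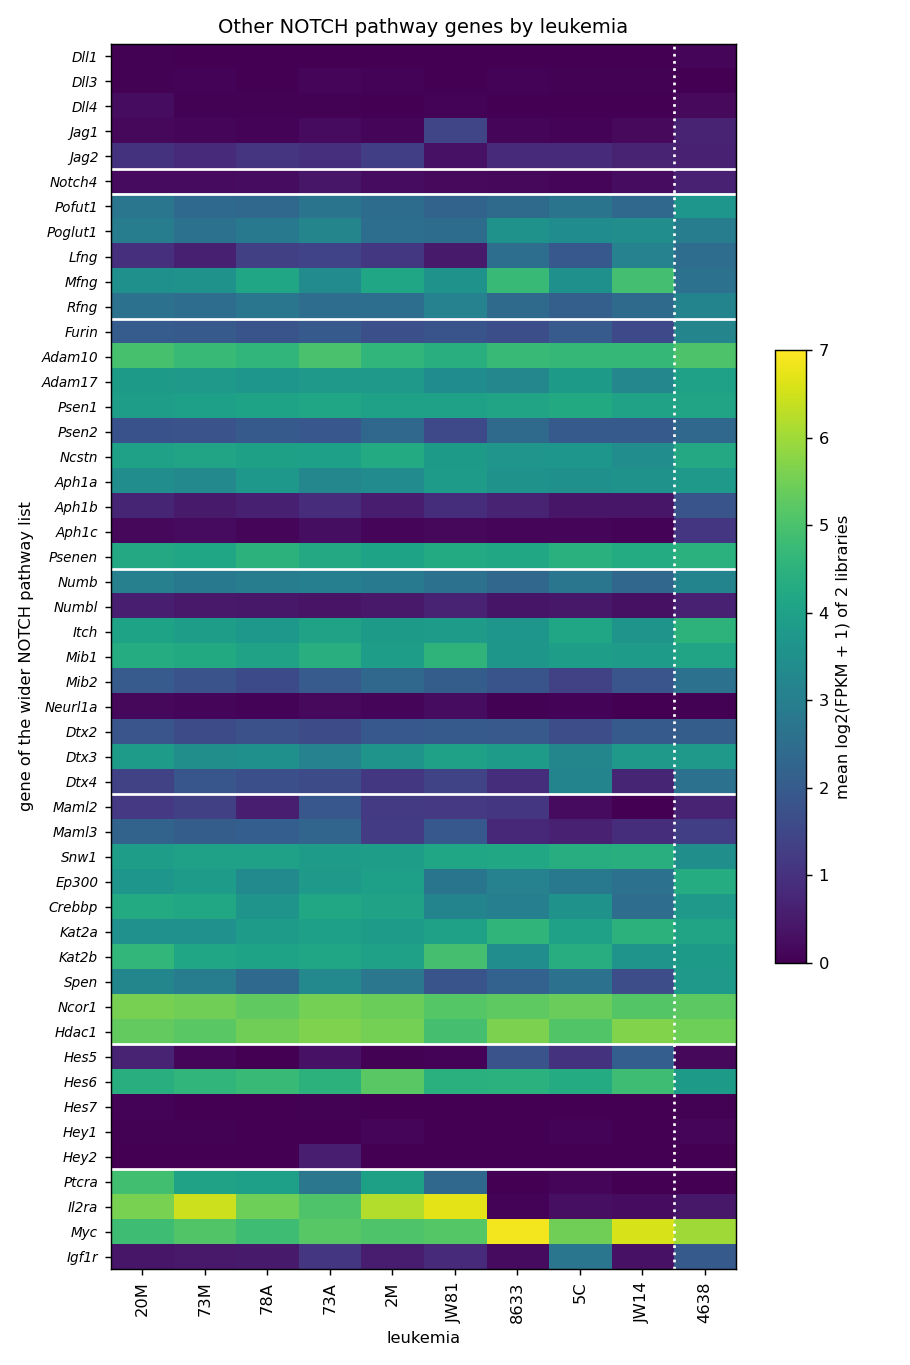
Mean log2(FPKM + 1) over both libraries (color scale, 0 to 7) of genes of the wider list in each leukemia, with white lines between sublists and a dotted line before 4638. *Il2ra* and *Ptcra* are dark in 8633, 5C and JW14, and *Myc* is brightest in 8633 and JW14, where its libraries were at 84.6 to 122.6 FPKM.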

How the data were processed

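Poly(A) RNA of bone marrow was sequenced in paired ends from TruSeq libraries. Alignment to mm10 with Bowtie 2 and quantification with RSEM were done by the authors. The gene annotation and RSEM version are not given in the sources used here. The deposited table is named for FPKM but holds RSEM expected counts, not scaled for depth or length. Of the nonzero values in a library, 68.3% to 74.5% were whole. Columns were matched to leukemias by name, and for 3 DEX columns (2M, 73A, 4638) the name gives the leukemia but not which sample of it.

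FPKM were computed here from merged exon lengths of GENCODE M21, found for 37693 genes (96.6%). Values of log2(FPKM + 1) were averaged over both libraries of a leukemia, on a scale that understates changes of low genes. Neighbours in an order were told apart where the ranges of their 2 libraries did not overlap. Rounded counts of genes that averaged 1 FPKM or more over 18 libraries were tested with edgeR 4.0.16 in R 4.3.3 (TMM, quasi-likelihood test, Benjamini-Hochberg adjustment over all genes, threshold 0.05). Libraries of a leukemia were paired by its name, and their deviations from the column means correlated at 0.583 to 0.911 over genes. Alternatives were DESeq2 1.42.0, its size factors, no filter, each leukemia left out, 4638 added, no leukemia block, a term for the 5 libraries with ribosomal RNA counts, the 4 leukemias without them, a pseudocount of 0.1, TMM scaling and either column alone. The fits were run on simulated counts with known changes. The 10 genes and all lists were chosen with earlier results of these data known. All 10 are named. Of the wider list, up to 4 called genes of each sublist with the largest fold change and the 3 with the widest range were to be named, and *Hes5*, *Hes6*, *Furin*, *Kat2b*, *Rfng*, the ligands and *Igf1r* were named after their values were seen. P-values measure the spread between these libraries and leukemias. Comparisons by genotype or *Notch1* mutation were not analysed here, and 1 gene of the wider list, counted among the 50, is not reported by name.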

Additional observations from a re-analysis of the deposited data

Results flagged for a closer look

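The DEX minus VEH difference of *Hes1* in JW81 was 1.36 on the log2(FPKM + 1) scale, far above the other 8 leukemias, whose values began at -0.84 in 73A. Its gap to the nearest leukemia was 0.573 of the whole range, above Dixon's 95% critical value for 9 values. Of 20 sets of values examined in this way, the level and the DEX minus VEH difference of each of the 10 genes, 1 was singled out, and chance singles out about 1 in 20. The DEX library of JW81 has counts on ribosomal RNA genes (47.5 counts per M), and its summed myeloid list was at 132.6 FPKM in the VEH and 33.6 FPKM in the DEX library. The part of either in the difference was not tested.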

How the results depend on the processing

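Between leukemias, the call was kept for 9 of the 10 genes under all 14 alternatives, with *Rbpj* the exception, and the number of genes with a range above 2 was 6 under each of 4 alternatives. A pseudocount of 0.1 widened the ranges of low genes, for instance of *Hes1* to 9.03 and *Notch3* to 8.67. In the comparison of DEX with VEH columns, the number of all genes past the threshold was 1475, and 650 to 2036 when a leukemia was left out. It was 650 without 20M, 716 without 73A, 725 without 2M, 846 without 73M and 973 without JW81. It was 465 with a term for the libraries with ribosomal RNA counts, 481 in the 4 leukemias without them and 8 with no replicate block. Of the 10 genes, 0 to 1 passed when a leukemia was left out (*Hes1* without JW81) and 1 with the ribosomal RNA term (*Dtx1*). Of the wider list, 5 passed, and 1 to 7 when a leukemia was left out (1 without 20M, 73A or 73M, 2 without 2M, 78A or JW81, 3 without JW14). It was 1 with the ribosomal RNA term, 1 in the leukemias without such libraries and 0 with no replicate block. The log2 fold change of *Notch1* was -0.086 to 0.026 when a leukemia was left out, turning to 0.0059 without 2M, 0.026 without 78A and 0.0092 without 8633, and was 0.022 with no replicate block, and that of *Hes1* to 0.35 with no replicate block. Fold changes that were not called also moved by over 1.5 times. *Notch1* was at -0.12 with the ribosomal RNA term and -0.22 in the leukemias without such libraries. *Notch2* was at 0.12 without 73M, 0.049 without 73A, 0.041 without JW14 and 0.039 without a filter. *Notch3* was at 0.20 and *Nrarp* at -0.20 without 73A, *Dtx1* at -0.16 without 78A and *Hes1* at -0.13 without 2M and -0.10 without 73A. *Heyl* was at 0.12 without JW81 and 0.079 with the ribosomal RNA term. In the leukemias without such libraries *Nrarp* was at -0.54 and *Rbpj* at -0.062. *Fbxw7* was at -0.014 without 2M, -0.055 without 78A, -0.023 with 4638 and -0.070 without a filter. Of the fold changes of the 10 genes under 16 alternatives, 153 kept their direction and side of the threshold, 2 passed it and 5 turned. *Furin* (without 5C, without a filter and with DESeq2) and *Kat2b* (without 5C, with 4638 and with DESeq2) were the further genes of the wider list that passed under an alternative. The causes were not tested. Depth limits *Notch3* in 8633 and JW14, *Hes1* in 5C, 8633 and JW14 and *Nrarp* in JW14, which rest on 12 counts or fewer in a library.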
